A study of Mus musculus with 45 samples.

Results

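Histone chaperones were followed here through 10 genes, Anp32e, Npm2, Asf1a, Asf1b, Nasp, Chaf1a, Chaf1b, Hira, Daxx and Atrx, out of 55357 genes in a table of read counts from 45 single mouse oocytes. They were chosen by gene symbol, with earlier results of these data known, and all 10 were in the table. The study built reconstituted chimeric follicles, in which a follicle loses its own oocyte, receives another and is then cultured, to ask how the surrounding somatic cells affect oocyte quality. AA (n = 12) stands for an aged oocyte with aged somatic cells, AY (n = 6) for an aged oocyte with young somatic cells, and YY (n = 11) for a young oocyte with young somatic cells. Controls were oocytes of young mice, either after culture in vitro (8 oocytes, called in vitro young) or taken without culture (8 oocytes, called in vivo young). Strain, the ages of the mice and the meiotic stage at collection are not given in the sources used here. Each oocyte is labelled as its own biological replicate, with no mouse named, and every p-value below reflects the spread between these samples alone, part of which may be technical.

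Histone chaperones escort histones from their synthesis to DNA and back, and keep free histones from binding where they should not. Chaperones of H3 and H4 split into a route coupled to DNA synthesis, through ASF1 and the CAF-1 complex, and routes that place the variant histone H3.3 without DNA synthesis, through HIRA or through DAXX with ATRX. Chaperones of H2A and H2B include nucleoplasmin, a store for the early embryo, and ANP32E, which takes the variant H2A.Z out of nucleosomes. A growing oocyte does not replicate its DNA, and stocks histones and their chaperones for fertilisation and the first cleavages.

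All libraries carried oocyte transcripts: in each group, all 14 oocyte markers (Zp3, Gdf9, Bmp15 and others) were detected. Total counts ranged from 418703 to 2201980 per library. The summed level of 12 granulosa cell markers was 1010 ± 177 unscaled CPM (each count divided by its library total and brought to a common scale) in AA (SD, n = 12, range 672 to 1310) and 1190 ± 246 in AY (n = 6, range 874 to 1410), against 716 ± 95.3 in YY (n = 11, range 541 to 828), 707 ± 166 in in vitro young and 668 ± 170 in in vivo young (n = 8 each). Serpine2, which oocytes also express, made up most of that sum. Among markers defining granulosa cells, Amh was at 0 in all 45 libraries. Foxl2 had 2 reads in all, and was at 0 in 11 of 12 AA, 5 of 6 AY and all YY and control libraries. Inha averaged 47.7 ± 34.5 CPM in AA and 44.2 ± 32 in AY, against 6.71 ± 6.54 in YY. Of the 12 markers, 9 (Foxl2 among them) had a higher mean in AA than in YY, 2 (Nr5a2 and Kitl) a lower one and 1 (Amh) none in either. In AY 8 (again with Foxl2) were higher than in YY and 3 (Cyp19a1, Nr5a2 and Kitl) lower. The granulosa sum therefore moved with the comparisons of AA and AY against YY, and its part in the results below was not tested. Runs of library numbers were set within each group, at the larger breaks in its numbers. The number ranges of the groups did not interleave, so differences between groups cannot be told apart from differences between runs. YY came from 2 runs (S198 to S202 with 5 libraries and S225 to S231 with 6), and results are given against each. Numbers also broke within AY (S234, then S240 to S244), in vitro young (S128 to S129, S148 to S149, S162 to S165) and in vivo young (S17 to S18, S71 to S77), and comparisons were not refitted for these smaller runs. Genes that were read in some libraries and nearly absent in others (11 genes on 10 chromosomes) gave 10 different combinations over the 45 libraries. AA libraries showed 2 of these and YY libraries 4 others, and the labels do not say whether libraries with the same combination (library pattern) share a mouse.

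Sequence before the start of transcription is shown for the 4 genes that passed the test between AA and YY, from RefSeq on GRCm38.p6, a different build from the mm39 of the count table. Of the 10 genes, 9 had an entry, and Npm2 had none. Each window holds the 250 bases before the annotated start. Capitals mark CCAAT, the letters of the CCAAT box that the factor NF-Y binds, TTTGAA, the letters of the cell cycle genes homology region (CHR), and GGCGGGAA, an E2F-type motif, each on either strand. The motifs were picked after the sequences had been seen. The windows of Anp32e at chr3:95929007-95929256, of Asf1b at chr8:83955444-83955693 and of Chaf1a at chr17:56040166-56040415 lie on the plus strand, and that of Nasp at chr4:116627952-116628201 on the minus strand.
Anp32e: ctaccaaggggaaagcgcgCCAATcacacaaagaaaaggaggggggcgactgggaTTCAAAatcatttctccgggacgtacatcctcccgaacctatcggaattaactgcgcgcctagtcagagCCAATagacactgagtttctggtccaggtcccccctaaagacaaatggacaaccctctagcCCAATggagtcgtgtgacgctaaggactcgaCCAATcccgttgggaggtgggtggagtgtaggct
Asf1b: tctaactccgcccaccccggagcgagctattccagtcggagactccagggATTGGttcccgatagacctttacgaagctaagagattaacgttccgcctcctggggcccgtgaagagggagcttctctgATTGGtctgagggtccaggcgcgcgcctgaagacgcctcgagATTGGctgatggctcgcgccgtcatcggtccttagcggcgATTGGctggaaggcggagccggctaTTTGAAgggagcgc
Nasp: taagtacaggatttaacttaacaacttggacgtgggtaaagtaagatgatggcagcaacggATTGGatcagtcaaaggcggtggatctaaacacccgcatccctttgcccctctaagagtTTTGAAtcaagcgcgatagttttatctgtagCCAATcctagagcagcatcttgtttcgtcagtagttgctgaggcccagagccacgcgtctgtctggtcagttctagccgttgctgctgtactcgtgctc
Chaf1a: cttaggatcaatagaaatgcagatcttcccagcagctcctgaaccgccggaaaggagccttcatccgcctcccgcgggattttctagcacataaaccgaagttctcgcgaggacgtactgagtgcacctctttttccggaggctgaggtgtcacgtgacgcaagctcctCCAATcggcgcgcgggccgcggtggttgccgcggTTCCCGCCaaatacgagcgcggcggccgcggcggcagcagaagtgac
Anp32e and Asf1b each held 4 CCAAT matches and 1 TTTGAA match, although these genes moved in opposite directions below. Nasp held 2 CCAAT matches and 1 TTTGAA match. Chaf1a held 1 CCAAT match and 1 GGCGGGAA match. No marked motif overlapped another. Among 27025 promoters of the same length, 34.5% held at least 1 CCAAT, 0.918% held at least 4, 16.3% held TTTGAA and 1.88% held GGCGGGAA. A match describes the letters only.

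Per kilobase of annotated exon, the 10 transcripts spanned a wide range of levels, and their order was led by the maternal store. Npm2, the oocyte nucleoplasmin, had a median of 1070 CPM per kb over the 45 oocytes (range 923 to 1230). Asf1b followed at a median of 217 (range 127 to 293). Atrx, Nasp and Asf1a had medians of 33.0, 31.2 and 20.8 CPM per kb. Daxx, Chaf1b and Chaf1a came next at 11.0, 9.62 and 7.11 CPM per kb, Anp32e at 2.49, and Hira last at 0.126. These lengths are exon unions of GENCODE M21, and parts of some exons also belong to another gene: 52.5% of the exon bases of Chaf1a are shared with Ubxn6, 48.0% of those of Asf1a with Mcm9, and 44.7% of those of Hira with Gm28539. How reads in shared bases were counted, and whether strand was used, is not stated by the labels. Per kilobase of unshared exon the medians were 40.0 for Asf1a, 14.97 for Chaf1a and 0.228 for Hira, which changes the order of Asf1a and Chaf1a among their neighbours and leaves Hira last.

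**Figure D1:**
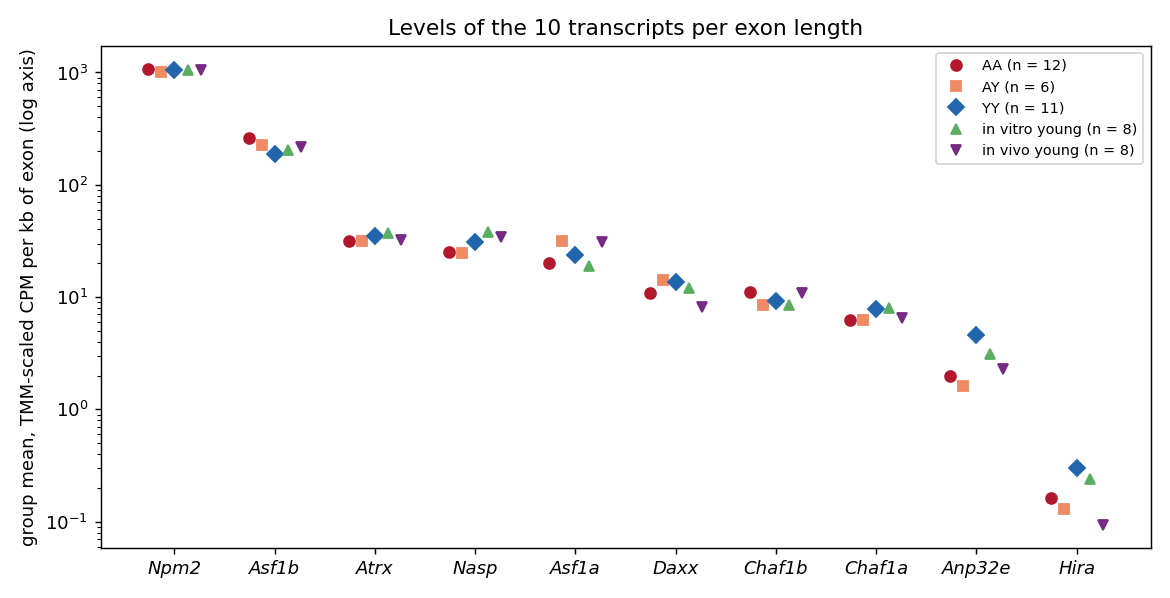
Group mean of TMM-scaled CPM per kilobase of exon (log axis) for the 10 transcripts, ordered by median over the 45 oocytes, with AA, AY, YY, in vitro young and in vivo young from left to right within each gene. Npm2 lies above all other genes in all 5 groups and Hira below all others.

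The full order of the 5 groups was resolved for no gene. All levels from here on are CPM scaled by the trimmed mean of M values (TMM), per gene and not per length. Of 36 pairs of groups that stood next to each other in the order of a gene's means (9 genes, Hira left out), 1 differed in an edgeR fit of all 45 libraries: Nasp in AA was below Nasp in YY (YY minus AA, a log2 of 0.311, adjusted p = 0.00517). Some pairs further apart also differed there, with age and reconstitution changing together, and culture as well where the control was in vivo young. Nasp in AA was below in vitro young (log2 of -0.60, adjusted p = 8.61e-06) and in vivo young (-0.44, adjusted p = 0.000852). Nasp in AY was below both (-0.64, adjusted p = 0.000202, and -0.47, adjusted p = 0.00455). Asf1b in AA was above in vitro young (0.35, adjusted p = 0.0107) but not called against in vivo young. Daxx in AY was above in vivo young (0.81, adjusted p = 0.0135). Anp32e had its lowest group mean in AY and its highest, 2.84 times as much, in YY. Npm2 had group means between 1056 and 1117 CPM, a ratio of 1.06.

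**Figure D2:**
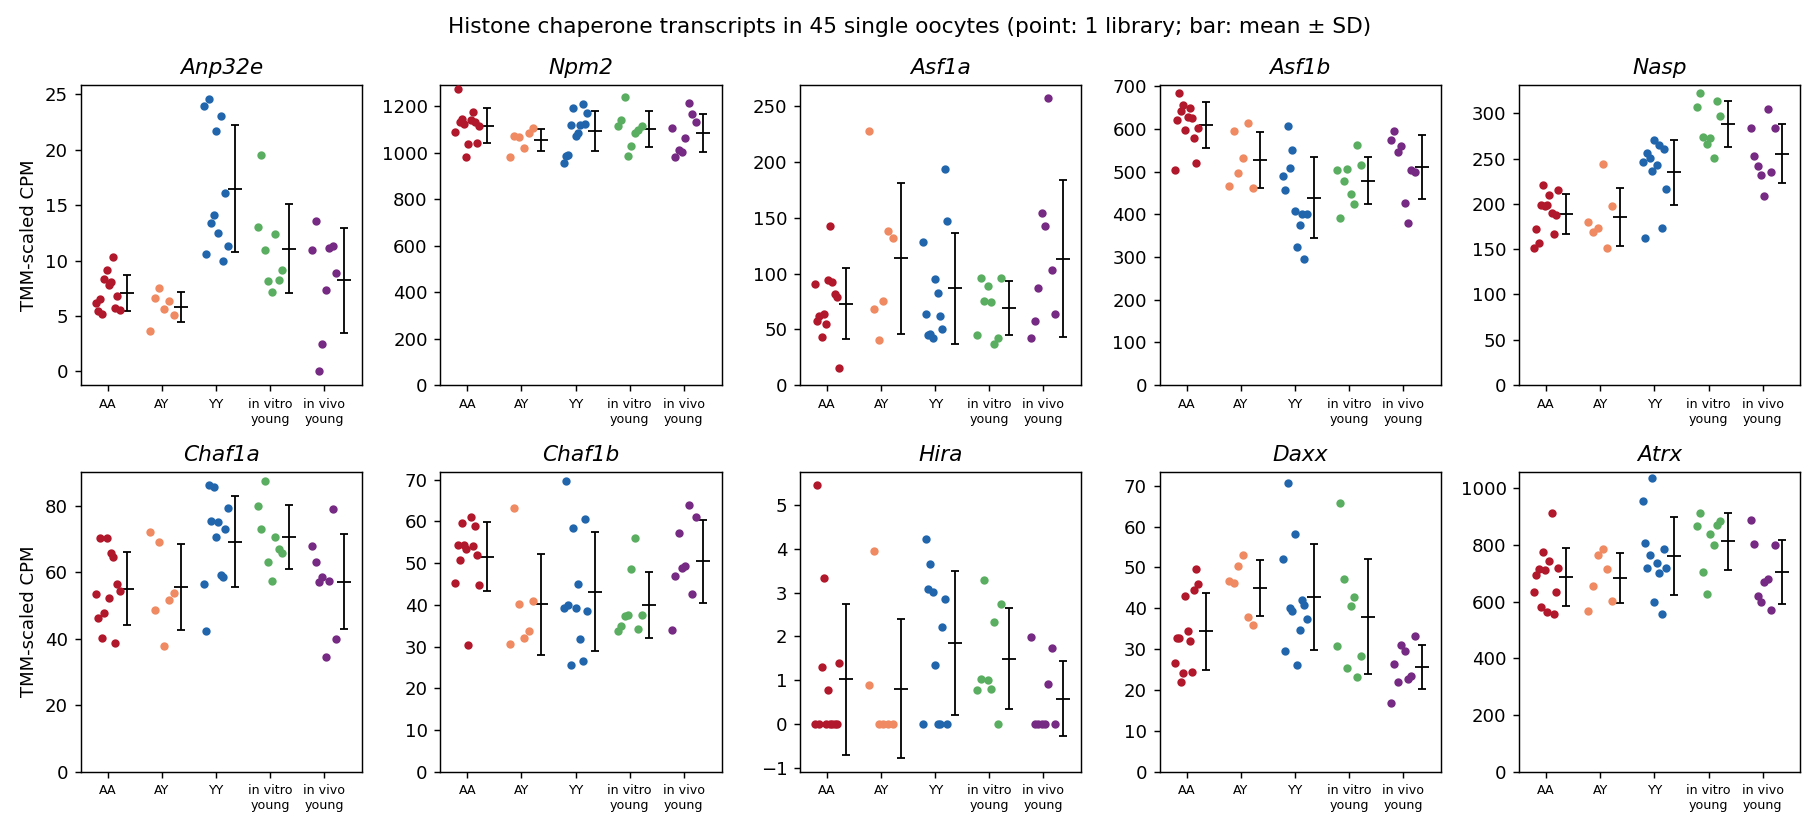
TMM-scaled CPM of each transcript in each oocyte (points) with mean ± SD (bars), groups from left AA, AY, YY, in vitro young, in vivo young. Anp32e is highest in YY, Npm2 sits at a like level in all 5 groups, Asf1a is widely scattered within groups, and many libraries have no Hira count.

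Oocytes of aged follicles against young ones were compared first, AA against YY, where age of oocyte and of somatic cells change together. Anp32e, Nasp and Chaf1a fell and Asf1b rose, that is 3 of 9 members tested were lower and 1 was higher, with adjusted p under 0.05 in edgeR's quasi-likelihood test. Of all 8533 genes tested, 14.7% were lower and 12.8% higher, so calls were common in this comparison. The median log2 fold change was -0.26 over the 9 members and -0.01 over all genes tested. Hira did not pass the filter on low counts.

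Anp32e, which removes H2A.Z from nucleosomes, had the largest fold change of the 9. Its level was 5.19 CPM at the lowest, 6.66 at the median and 10.3 at the highest in AA, and 9.97, 14.1 and 24.6 CPM in YY. All 12 AA oocytes lay below the YY median, and the groups overlapped only between 9.97 and 10.3 CPM. The log2 fold change was -1.18 ± 0.24 (SE; adjusted p = 0.000234), from group means of 7.09 ± 1.63 in AA and 16.5 ± 5.72 CPM in YY (SD). These levels rest on few reads, 3 to 10 per library in AA and 5 to 24 in YY. Counting alone gives a coefficient of variation of 41.7% at the depth of AA, above the 23.0% seen there. In the fit, Anp32e passed the filter only through YY, where 8 of 11 libraries reached the needed level of 12.5 unscaled CPM against 0 of 12 in AA, and with no filter it was also called (adjusted p = 0.00468). Both YY series were alike for it, with 17.3 ± 6.49 CPM in S198 to S202 and 15.8 ± 5.51 in S225 to S231. Against the controls, in the fit of all 45 libraries, Anp32e was not called in AA. Its log2 fold change was -0.26 against in vivo young (adjusted p = 0.622) and -0.61 against in vitro young (adjusted p = 0.134).

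Asf1b, one of the ASF1 pair that hands H3 and H4 dimers on to CAF-1 and HIRA, was the member that rose. Its CPM were 505 at the lowest, 623 at the median and 684 at the highest in AA, and 296, 409 and 608 in YY. All 12 AA oocytes were above the YY median, although the ranges overlapped. The log2 fold change was 0.47 ± 0.09 (SE; adjusted p = 0.000149). The rise depended on the YY numbering series: YY libraries S198 to S202 averaged 523 ± 58.4 CPM (SD, n = 5) and S225 to S231 averaged 368 ± 47.2 (n = 6). Against S198 to S202 alone the log2 fold change was 0.21 (adjusted p = 0.169), and against S225 to S231 alone it was 0.72 and called (adjusted p = 1.38e-08). Its paralogue Asf1a did not pass the test (-0.26 ± 0.32, adjusted p = 0.592).

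Nasp, which binds soluble H3 and H4 and protects them from degradation, was at 152 CPM at the lowest, 194 at the median and 220 at the highest in AA, and at 162.6, 246 and 270.9 in YY. All 12 AA oocytes lay below the YY median, and most YY oocytes lay above the AA range. The log2 fold change was -0.31 ± 0.09 (SE; adjusted p = 0.00825). Against each YY series it was -0.30 (S198 to S202, adjusted p = 0.101) and -0.33 (S225 to S231, adjusted p = 0.0093). With the library pattern as a random block the adjusted p was 0.138, and with no filter on low counts it was 0.0569.

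Chaf1a and Chaf1b encode the large and middle subunits of CAF-1, which deposits H3 and H4 behind the replication fork. Chaf1a was at 38.8 CPM at the lowest, 53.9 at the median and 70.4 at the highest in AA, and at 42.2, 72.9 and 86.1 in YY. All 12 AA values lay below the YY median, within overlapping ranges. The log2 fold change was -0.35 ± 0.13 (SE; adjusted p = 0.0382), and leaving out any 1 of 12 of the 23 AA and YY libraries raised the adjusted p to between 0.0501 and 0.0675 (AA replicates 2, 4, 5, 7 and 10, and YY replicates 3, 4, 5, 6, 7, 10 and 11). Against S198 to S202 alone it was -0.38 (adjusted p = 0.195) and against S225 to S231 alone -0.35 (adjusted p = 0.0659). The call was also lost with the library pattern as a random block (adjusted p = 0.162), with no filter (0.162), in limma voom (0.0571), with the replicate block (0.0525) and with genes detected as a covariate (0.0622). Against the controls, in the fit of all 45 libraries, Chaf1a was not called in AA. Its log2 fold change was -0.09 against in vivo young (adjusted p = 0.758) and -0.36 against in vitro young (adjusted p = 0.0615). Between AA and YY, Chaf1b had 0.25 ± 0.16 and did not pass the test (adjusted p = 0.243). Per kilobase, the ratio of Chaf1a to Chaf1b had a median of 0.6 in AA (range 0.348 to 0.908) and of 0.948 in YY (range 0.32 to 1.56). The ratio counts all exon bases of Chaf1a, and the ranges overlapped.

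Daxx and Atrx, the pair that places H3.3 at telomeres and heterochromatin next to centromeres, and Npm2 did not pass the test. Daxx had a log2 fold change of -0.32 ± 0.16 (adjusted p = 0.139), Atrx of -0.15 ± 0.09 (adjusted p = 0.213) and Npm2 of 0.03 ± 0.06 (adjusted p = 0.791). Atrx, which mouse oocytes need for chromosome alignment in meiosis, also differed between the YY series, with 856 ± 133 CPM in S198 to S202 and 682 ± 87.4 in S225 to S231. Against S198 to S202 alone Atrx was lower in AA (-0.33, adjusted p = 0.0384), and against S225 to S231 alone its log2 fold change was 0.002 (adjusted p = 0.988).

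**Figure D3:**
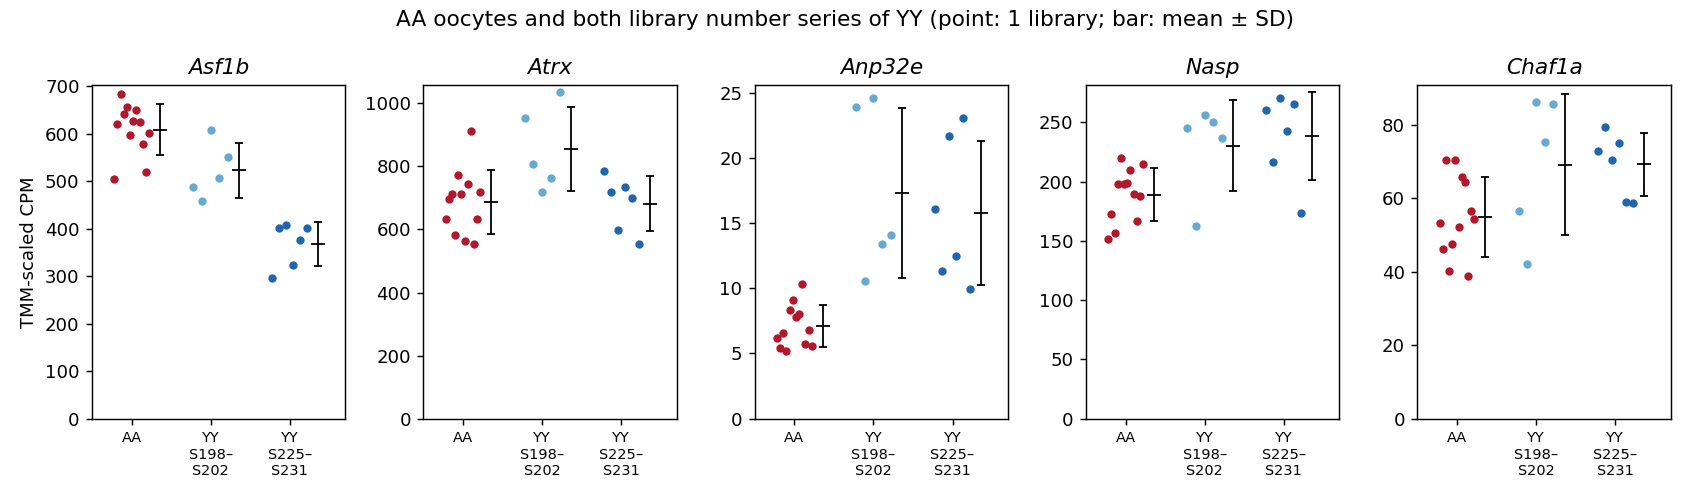
TMM-scaled CPM per oocyte (points) with mean ± SD (bars) for AA at left, YY libraries S198 to S202 in the middle and YY libraries S225 to S231 at right. Asf1b averages 609 CPM in AA, 523 in the first and 368 in the second YY series, while Anp32e, Nasp and Chaf1a have like means in both YY series.

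Aged oocytes in young somatic cells were then set against both ends, AY against AA for the somatic cells around an aged oocyte, and AY against YY for the oocyte's age in young somatic cells. Between AY and AA no member passed the edgeR test, and none had an unadjusted p under 0.05; DESeq2 and limma voom also called 0. Of all genes tested, 3.52% were higher and 3.07% lower in AY. Between AY and YY, Anp32e alone of the 9 was called, and it was lower; 0.715% of all genes were higher and 0.902% lower. These comparisons share AA and YY libraries with the first one and are not independent of it.

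Anp32e had 3.60, 5.12, 5.67, 6.33, 6.59 and 7.54 CPM in the AY oocytes, all below the lowest YY oocyte at 9.97. The log2 fold change of AY against YY was -1.49 ± 0.31 (SE; adjusted p = 0.00598), and that of AY against AA was -0.31 ± 0.32 (adjusted p = 0.62). The AY libraries held 3 to 6 reads of it each. Here too Anp32e entered the fit through YY alone, with 0 of 6 AY libraries at the level the filter needs, and with no filter the adjusted p was 0.0336. With the library pattern as a random block the adjusted p of AY against YY was 0.13, and DESeq2 gave no adjusted p (log2 fold change -1.51).

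Asf1b in AY lay between the other groups, at 528 ± 65.4 CPM (SD, n = 6), against 609 ± 53.4 in AA and 438 ± 94.9 in YY. It passed the test against neither: the log2 fold change was -0.21 ± 0.11 against AA (adjusted p = 0.255) and 0.26 ± 0.11 against YY (adjusted p = 0.259). Against YY libraries S198 to S202 alone it was 0.0042 (adjusted p = 0.989), and against S225 to S231 alone it was 0.52 and called (adjusted p = 0.000648). Nasp and Chaf1a had AY means near those of AA. Nasp averaged 186 ± 32.3 CPM in AY and 189 ± 22.4 in AA, a log2 fold change of -0.04 ± 0.11 (adjusted p = 0.888). Against YY, Nasp was at -0.35 ± 0.11 (adjusted p = 0.104), with 6 of 6 AY oocytes below the YY median, and was called against S225 to S231 alone (-0.37, adjusted p = 0.0431). Chaf1a averaged 55.5 ± 12.9 CPM in AY and 55.0 ± 10.9 in AA (0.03 ± 0.16, adjusted p = 0.94). Daxx averaged 44.99 ± 6.75 CPM in AY and 34.4 ± 9.41 in AA, a log2 fold change of 0.38 ± 0.19 that did not pass (adjusted p = 0.245), with 6 of 6 AY oocytes above the AA median. Asf1a had the widest error, 0.66 ± 0.36 against AA (adjusted p = 0.29). Chaf1b was at -0.36 ± 0.19 (adjusted p = 0.268) against AA, Npm2 at -0.08 ± 0.07 and Atrx at -0.01 ± 0.11. A p above the threshold with 6 AY oocytes does not show that a gene is alike in both groups.

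**Figure D4:**
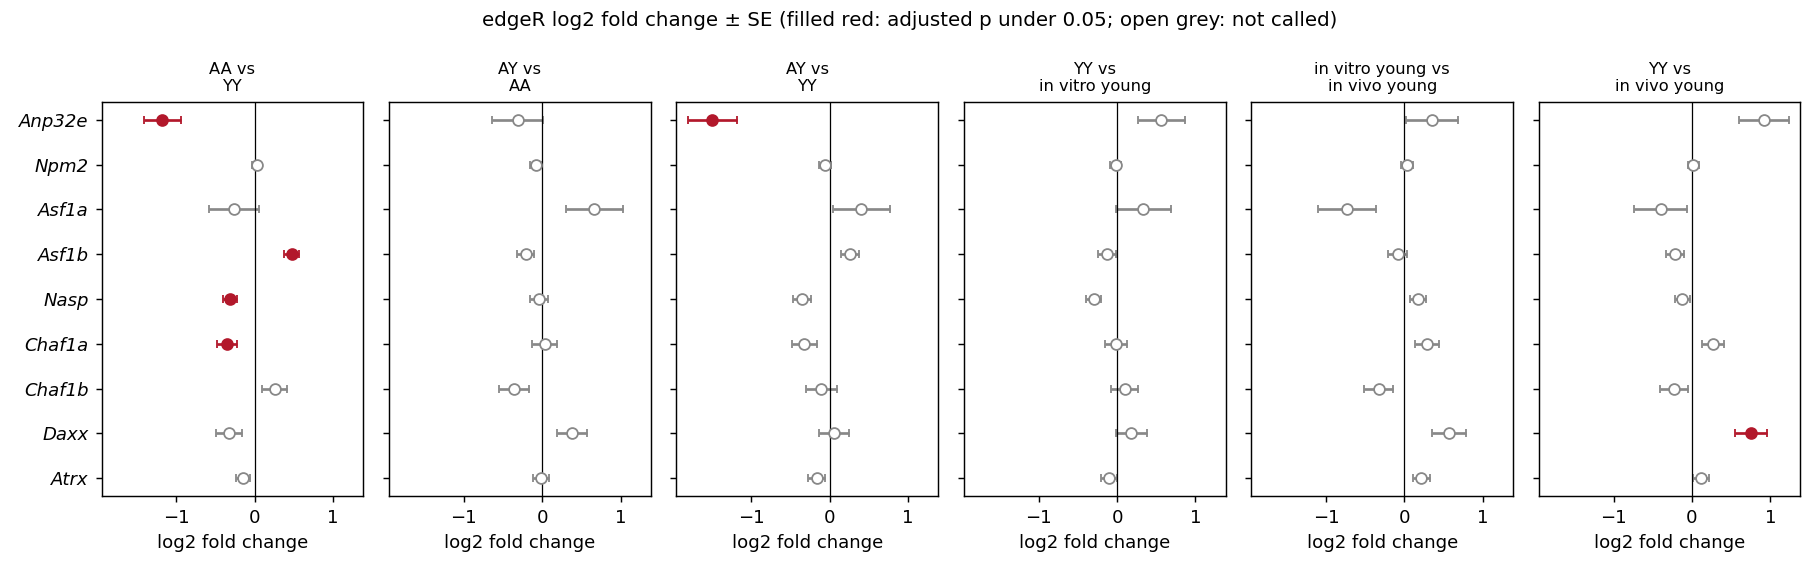
Log2 fold change ± SE from edgeR (x axis) of the 9 transcripts that passed the filter, in 6 comparisons. Filled red points passed at an adjusted p under 0.05: Anp32e, Asf1b, Nasp and Chaf1a for AA against YY, Anp32e for AY against YY and Daxx for YY against in vivo young.

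Reconstitution and culture were examined in young oocytes. In YY against in vitro young, no member passed the edgeR test and 1 (Nasp) had an unadjusted p under 0.05, while 0.777% of 8749 genes were higher and 1.7% lower. Nasp averaged 235 ± 36.1 CPM in YY and 288 ± 25.5 in in vitro young. All 11 YY oocytes were below the in vitro median, at a log2 fold change of -0.30 ± 0.10 (adjusted p = 0.0818; 0.0468 in DESeq2 and 0.034 in limma voom, which both called it). Asf1b was lower in YY only when the S225 to S231 libraries were taken alone (-0.38, adjusted p = 0.0261; 0.13 for S198 to S202, adjusted p = 0.631). In in vitro young against in vivo young, no member passed and 1 (Daxx) had an unadjusted p under 0.05; 0.126% of genes were higher and 0.0114% lower, and DESeq2 and limma voom called no member either.

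YY against in vivo young combines reconstitution and culture, and here Daxx was called higher, 1 of 9, with 3.86% of all genes higher and 6.03% lower. Daxx, the chaperone that binds H3.3 itself, was at 26.3 CPM at the lowest, 40.1 at the median and 70.8 at the highest in YY, and at 16.9, 24.9 and 33.3 CPM in in vivo young. All 11 YY oocytes lay above the in vivo median, and the ranges overlapped. The log2 fold change was 0.76 ± 0.21 (SE; adjusted p = 0.0147), and it was called with either YY series alone (adjusted p = 0.0418 and 0.0452) but not with the library pattern as a random block (adjusted p = 0.0576). In vitro young oocytes lay between, at 38.0 ± 14.2 CPM (SD, n = 8), and their log2 fold change against in vivo young was 0.57 ± 0.22 (adjusted p = 0.345). The ratio of Atrx to Daxx per kilobase had a median of 2.78 in YY (range 1.47 to 4.06), 3.28 in in vitro young (range 2.01 to 5.41) and 3.82 in in vivo young (range 2.8 to 7.58). Anp32e was higher in YY by 0.92 ± 0.31 and did not pass the threshold (adjusted p = 0.0543). The filter of this fit needs 8 libraries at 10.2 unscaled CPM. For Anp32e, 11 of 11 YY, 4 of 8 in vitro young and 4 of 8 in vivo young libraries reached that level. With no filter the adjusted p of Anp32e was 0.11. DESeq2 (0.0275) and limma voom (0.0208) called it. Asf1b was again lower in YY against in vivo young for S225 to S231 alone (-0.47, adjusted p = 0.00327) and not for S198 to S202 (0.05, adjusted p = 0.878).

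Hira, the chaperone of the HIRA complex that places H3.3 outside replication and that mouse oocytes need for it, was barely read. It had 51 counts in all 45 libraries and was at 0 in 21. The highest count per library was 4 in AA, 3 in AY, 3 in YY, 3 in in vitro young and 2 in in vivo young. A count of 0 allows up to 3 counts, which is 1.36 CPM in the deepest and 7.16 CPM in the shallowest of the 45 libraries, and covers counting error only. Gm28539, which shares exons with Hira, had 0 counts in all. Hira passed the filter in no fit, and differences between groups were not tested.

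How much oocytes of the same group differ from each other varied by gene. The biological coefficient of variation (BCV), edgeR's estimate of spread beyond counting, was 10% for Npm2, lower than in all but 2.17% of genes of like level (median 14.1%). Asf1a stood at the other end with 49.8%, above 98.9% of genes of like level (median 18.7%). Asf1a was at 257 CPM in 1 in vivo young oocyte, at 227.7 in 1 AY oocyte and at 194 in 1 YY oocyte, and at 15.4 in 1 AA oocyte. High and low oocytes occurred in the same group: AY spanned 40.2 to 227.7 CPM and in vivo young 41.9 to 257. For the other 7 genes the BCV ranged from 13.2% (Nasp) to 25.3% (Anp32e). Among genes of like level the order differed. Anp32e was lower than all but 6.59% of them (median 35.2%), and Atrx ranked highest of the 7, at 61.3%. The ratio of Asf1b to Asf1a per kilobase ranged from 7.08 to 61.1 in AA, from 3.18 to 19.2 in AY, from 2.38 to 21.0 in YY, from 6.39 to 20.9 in in vitro young and from 2.3 to 21.4 in in vivo young. The AA maximum came from replicate 12 alone, and without it was 23.4. Counting only the exon bases of Asf1a that are not shared with Mcm9, the ratio had a median of 7.04 in AA, 4.65 in AY, 4.91 in YY, 5.0 in in vitro young and 4.49 in in vivo young. Over the 45 oocytes Asf1b ranged from 127 to 293 CPM per kb and Asf1a from 4.22 to 70.7.

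Each transcript was also matched with the gene whose pattern over the 45 oocytes was nearest, by the root mean square difference of z scores of log2 CPM. These are descriptions: points of a group share age and culture, and many share a run of library numbers. Asf1b was nearest to Rbbp7, at 0.467, where the median gene was at 1.41. Rbbp7 encodes an H4-binding protein of several chromatin complexes, and it averaged 4375 ± 281 CPM in AA, 3658 ± 545 in AY and 3162 ± 592 in YY. Asf1a was nearest to Zar1, a maternal RNA-binding protein gene, at 0.498. The 5 oocytes with the most Asf1a had 542, 775, 564, 416 and 615 CPM of Zar1, and the oocyte with the least Asf1a had also the least Zar1, 71.2 CPM. Nasp was nearest to Dnmt1, the maintenance DNA methyltransferase gene, at 0.621. Dnmt1 averaged 347 ± 79.2 CPM in AA, 405 ± 91.5 in AY, 574 ± 162.6 in YY, 705 ± 69.8 in in vitro young and 710 ± 140 in in vivo young. Chaf1a was nearest to Wdr13 (0.775), Anp32e to Phf3 (0.834), Daxx to Nat14 (0.84), Atrx to Crnkl1 (0.904), Npm2 to Akr1b8 (0.912) and Chaf1b to Ttc1 (0.927). Wdr13 itself was read at a low level, between 0 and 17.5 CPM. No member was the nearest gene of another. The closest pair of members was Anp32e with Atrx at 1.04.

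**Figure D5:**
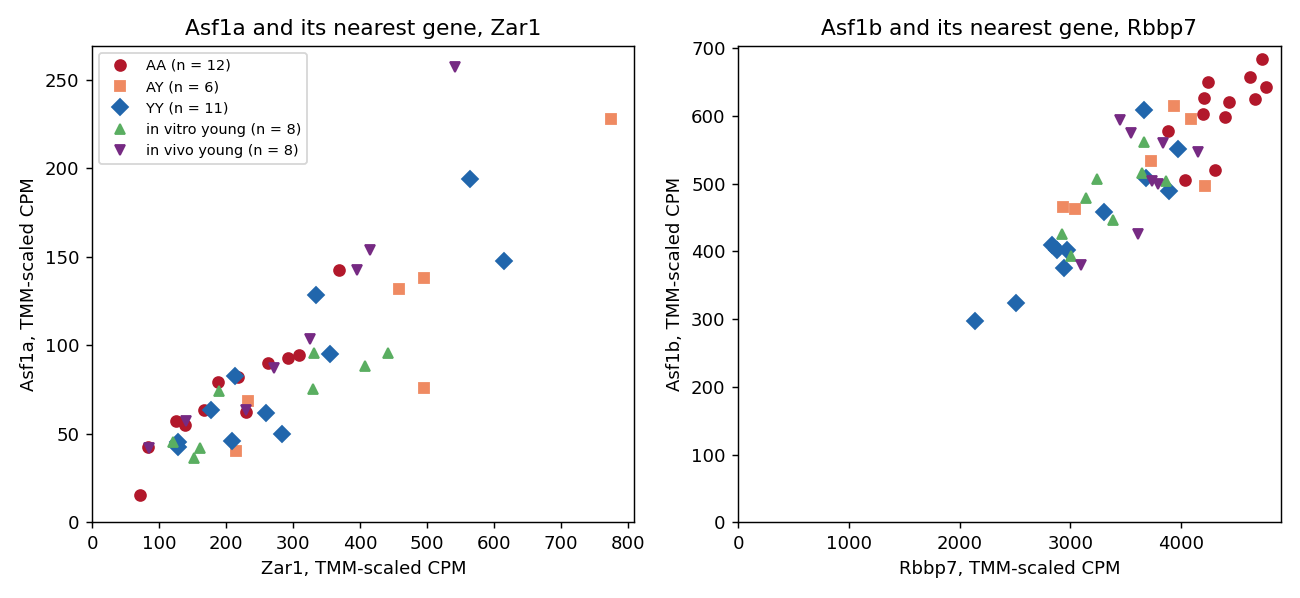
TMM-scaled CPM per oocyte of Asf1a against Zar1 (left) and of Asf1b against Rbbp7 (right), with symbols for AA, AY, YY, in vitro young and in vivo young. Asf1a and Zar1 are high together in single oocytes of several groups; Asf1b and Rbbp7 are both highest in AA and lowest in part of YY.

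Genes that work beside these chaperones were described through 4 lists with 55 entries, of which 47 were tested in the fit of chimeric follicles. Between AA and YY, 12 of the 47 were lower and 5 higher, where 14.7% of all genes tested were lower and 12.8% higher. By list these were 4 and 2 of 15 partners of H3-H4 chaperones, 2 and 2 of 13 chaperones of H2A-H2B and linker histones, 4 and 1 of 9 genes of H2A.Z exchange, and 2 and 0 of 10 histones with their mRNA-binding protein. The list medians were -0.23, -0.05, -0.26 and -0.06 on the log2 scale. Against YY libraries S198 to S202 alone, 3 were lower and 0 higher, and against S225 to S231 alone 14 were lower and 6 higher. With the library pattern as a random block, 5 were lower and 4 higher.

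Among genes of H2A.Z exchange, Vps72, the H2A.Z-binding subunit of the exchange complexes, averaged 120 ± 16.3 CPM in AA and 165.4 ± 17.9 in YY (log2 fold change -0.47 ± 0.10, adjusted p = 0.000302). Of the ATPase pair of these complexes, Ruvbl1 fell (-0.75 ± 0.21, adjusted p = 0.0053) and Ruvbl2 rose (0.20 ± 0.07, adjusted p = 0.0238). Of the paralogues of Anp32e, Anp32b fell by 0.95 on the log2 scale (adjusted p = 0.00111) and Anp32a by 0.83 (adjusted p = 0.0123). Anp32a was near the filter level of 12.5 unscaled CPM, at 9.03 ± 3.47 CPM in AA and 16.0 ± 5.53 in YY. Its call therefore leans on YY, where it was higher. Among H3-H4 partners, Sart3, a spliceosome recycling factor that also binds histones, averaged 63.5 ± 17.7 CPM in AA and 135 ± 43.5 in YY (-1.08 ± 0.17, adjusted p = 1.18e-05). Supt6, a chaperone of transcribed chromatin, fell by 0.88 (adjusted p = 9e-06). Rbbp7 rose (0.46 ± 0.08, adjusted p = 4.27e-05), as did Hat1, which acetylates new H4 (0.57 ± 0.14, adjusted p = 0.00295). Supt16, a subunit of the chaperone FACT, rose (0.49 ± 0.15, adjusted p = 0.0114), and so did Aplf, a chaperone of DNA repair (0.50 ± 0.12, adjusted p = 0.00156). Against YY libraries S198 to S202 alone, none of the rises named here was called, and 3 genes of the lists were called lower. H3f3a, a gene that encodes H3.3, fell by 0.57 (adjusted p = 0.000528), and the linker histone gene H1f0 by 0.98 (adjusted p = 0.00202). The other H3.3 gene of the list, H3-3b, was not called.

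In the other comparisons few of these genes were called, and several calls were lost under other settings. In AY against AA, Sart3 (102 ± 30.8 CPM in AY, 63.5 ± 17.7 in AA) and H1f0 (34.9 ± 15.2 in AY, 15.7 ± 6.88 in AA) were higher, by 0.69 (adjusted p = 0.0324) and 1.19 (adjusted p = 0.00762) on the log2 scale, and Supt16 was lower (adjusted p = 0.0412). Against these 2 higher and 1 lower of 47, 3.52% of all genes were higher and 3.07% lower. With the library pattern as a random block 0 were called, and with genes detected as a covariate 1. In AY against YY, Npm1, the nucleolar relative of Npm2, was higher at 335 ± 22.2 CPM in AY and 235 ± 68.7 in YY (adjusted p = 0.0465), 1 of 47 where 0.715% of all genes were higher. No gene of the lists was called there with the pattern block, the replicate block, the fit of 45 libraries or the fit of AY and YY alone. In YY against in vitro young, H2ax (0.69, adjusted p = 0.0105) and Vps72 (0.55, adjusted p = 0.0127) were higher and Hat1 lower (-0.72, adjusted p = 0.0211), and 0 were called with genes detected as a covariate. In YY against in vivo young, Vps72 was higher (0.52, adjusted p = 0.00749) and Set, a chaperone related to Nap1l1, lower (-0.81, adjusted p = 0.0284), while 1 higher and 0 lower were called with the pattern block. In in vitro young against in vivo young none of the 48 tested passed the edgeR test, 6 had an unadjusted p under 0.05, and DESeq2 and limma voom called 0.

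By the coordinates of the count table (mm39, start and end of the gene), Anp32e lies at chr3:95836558-95854703, Npm2 at chr14:70884742-70896685, Asf1a at chr10:53472853-53485322, Asf1b at chr8:84682136-84696827 and Nasp at chr4:116458249-116485139. Chaf1a lies at chr17:56347439-56379290, Chaf1b at chr16:93680789-93703004, Hira at chr16:18695787-18789060, Daxx at chr17:34128388-34134565 and Atrx at chrX:104841221-104973010. All 10 are annotated as protein-coding. A search of their coding transcripts against all GENCODE M21 transcripts, at 95% identity over at least 200 bases, found other genes only at the overlapping loci of Asf1a, Chaf1a and Hira.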

How the data were processed

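Counts of reads per gene were deposited by the authors as whole numbers, not normalized, for 45 single oocytes. They were made with STAR 2.7.8a and HTSeq 0.11.0 on mm39 per the submitters' processing notes, and the strand setting is not given. Per the labels' protocols, cDNA came from a NEBNext low-input kit without molecular identifiers. Totals per library ranged from 418703 to 2201980, which limits genes with few reads.

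The 10 members and the related and marker lists were chosen with earlier results of these data known. All 10 members are named; of related genes, up to 2 called per direction and list.

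The test was edgeR 4.0.16 (R 4.3.3): TMM scaling, filterByExpr (minimum count 10, minimum total 15), robust quasi-likelihood fit, Benjamini-Hochberg adjustment over all tested genes, called under 0.05. AA, AY and YY shared a fit of 29 libraries; YY and both controls shared one of 27. SE was derived from the F statistic. The nearest gene used log2 CPM with a prior count of 2. The fit was tested on simulated data. Exon lengths and transcripts came from GENCODE M21, blastn was version 2.17.0, promoters from RefSeq.

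Alternatives were RLE scaling, DESeq2 1.42.0, limma 3.58.1 voom, other filters, other library sets, a replicate block, genes detected as a covariate, and leaving out each library. A block by library pattern was added after seeing the data. Every pair of libraries within a group differed by more than counting noise.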

Additional observations from a re-analysis of the deposited data

Results flagged for a closer look

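Of 30 groups of 4 to 10 oocytes that were examined for 1 sample far from the others, 2 stood out, and chance alone gives about 1 in 20. Both concern AY replicate 2. Its Chaf1b level was 63.26 CPM, and the next highest AY oocyte was at 40.98 CPM. Its Hira level was 3.954 CPM from 3 reads, and the next AY oocyte was at 0.8999 CPM. No cause was tested.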

How the results depend on the processing

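No member changed direction while called in 1607 values of single genes under other settings, of which 1564 kept their side of the threshold, 25 lost a call and 18 gained one. Members called in AA against YY (4 in the analysis reported) numbered 3 to 4 when single libraries were left out, 2 with no filter on low counts, 2 with the library pattern as a random block, 1 against YY libraries S198 to S202 alone (Atrx) and 2 against S225 to S231 alone (Asf1b and Nasp). Anp32e failed the low-count filter in both of those and where only AA and YY were fitted. In AY against AA 1 was called (Asf1b, -0.34, adjusted p = 0.0351) with the replicate number as a block, and 0 with any single library left out. In AY against YY (1 reported) the counts were 1 to 2 with a library left out, 0 with at least 10 counts required in every library of the smallest group, 0 and 2 against the S198 and S225 series, and 0 with the pattern block; DESeq2 gave Anp32e no adjusted p there. The second call, Nasp, came without AY replicate 4 (adjusted p = 0.0486) or YY replicate 2 (0.0448). In YY against in vitro young 1 was called by DESeq2, 1 by limma voom and 1 against the S225 series, and 0 with any single library left out, as between both controls. In YY against in vivo young (1 reported) 2 were called by DESeq2, limma voom, the replicate block, the covariate of genes detected, the fit of 45 libraries and the S225 series, 0 with the pattern block, and 1 to 2 with a library left out, the second being Anp32e without YY replicate 9 (0.0482) or in vivo young replicate 2 (0.0458) or 6 (0.0402). The cause was not tested.

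Correlations of same-numbered deviations between groups ran from -0.208 to 0.242. Differently numbered samples were not set beside them, so pairing by replicate number was not tested. The replicate block is given for completeness. It left 3 members called in AA against YY. Over all genes, calls ranged from 451 (S198 series) to 3151 (S225 series) for AA against YY (2348 reported; 1081 with the pattern block), from 80 (pattern) to 1078 (replicate block) for AY against AA (562; 203 without AY replicate 1), and from 22 (pattern) to 847 (S225) for AY against YY (138). They ranged from 67 (genes detected) to 803 (S225) for YY against in vitro young (217), from 264 (S198) to 1687 (S225) for YY against in vivo young (866), and from 0 (genes detected) to 44 (DESeq2) between both controls (12). With 1 library left out, the furthest counts were 84 for AY against YY (AY replicate 5), 114 and 352 for YY against in vitro young (in vitro young replicates 5 and 3), and 0 and 18 between both controls (in vitro young replicate 1, in vivo young replicate 6). Depth limits Anp32e and Hira most.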
